A study of Lotus japonicus with 24 samples.

Results

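The transcriptomes of shoots and roots of wild-type (WT) *Lotus japonicus*, a model legume, were compared in plants that were not inoculated with rhizobia (non-symbiotic conditions, NS). The comparison used 6 of the 24 RNA-seq libraries of the series, 3 of WT shoots NS and 3 of WT roots NS, and all 30243 genes of the deposited table. The other libraries come from *Ljasn1‐2*, a line homozygous for a retrotransposon insertion in the asparagine synthetase gene *LjASN1*, and from plants under symbiotic (S) conditions, which were inoculated with *Mesorhizobium loti* and formed nodules. WT plants were of the ecotype Gifu and carried no mutation. Under NS conditions they were watered with a solution that held ammonium nitrate and potassium nitrate, for shoots and roots alike. Shoots and roots were harvested separately, and plants were pooled for each library, so that the 3 libraries of an organ measure the spread between pools and not between plants. The labels give 40 days of growth and 4 h of light at harvest, while the methods of the study give an earlier harvest of NS plants and a longer light period. The labels name shoots and roots without saying which parts were taken, while the methods of the study describe the RNA extraction for leaves. No separation of cell types is described. A value per organ is therefore an average over its cell types, and a higher share of a cell type in one organ cannot be told apart from more RNA of a gene per cell.

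Shoots of a legume hold the leaves, which fix carbon in chloroplasts and export sucrose, and the meristems that form leaves and branches. Roots take up nitrate, ammonium, water and minerals, seal their inner tissues with Casparian strips and suberin, and live on the sucrose sent from the shoot. In *Lotus* and other temperate legumes, nitrogen taken up or fixed is moved mostly as asparagine, which is made by asparagine synthetase.

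Levels are given in FPKM (fragments per kilobase of gene length, scaled to the sequencing depth), restored from the deposited table, and as mean ± SD over the 3 libraries of an organ. Differences are log2 changes of shoots minus roots on the log2(FPKM + 1) scale with their SE, so that positive values stand for higher levels in shoots. This scale understates the change of a gene that is low in either organ. A gene was tested when it reached 1 FPKM in at least 3 of the 6 libraries, which held for 17288 genes, and was called when the p-value of limma, adjusted by Benjamini and Hochberg over these genes, was under 0.05.

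The libraries held between 40956095 and 53037501 reads on genes in shoots and between 41023604 and 48079520 in roots. Pearson correlations across the tested genes were between 0.970 and 0.995 for libraries of one organ and between 0.574 and 0.624 for a shoot and a root library, as a description across genes, which are not independent replicates. The 10 genes with most reads took between 10.8 and 11.2% of the reads in shoots and between 4.20 and 4.96% in roots. Genes described as photosystem or light harvesting proteins took between 10.1 and 10.3% of the reads in the shoot libraries and between 0.0665 and 0.0906% in the root libraries. Carbon fixation genes took between 5.43 and 5.63% in shoots and between 0.0486 and 0.0522% in roots. Root patterning genes took between 0.116 and 0.136% in shoots and between 0.256 and 0.262% in roots. Genes of Casparian strips, suberin and lignin separated the organs less, with between 0.180 and 0.199% in shoots and between 0.237 and 0.266% in roots. The 4 leghemoglobin genes, markers of nodules, summed to at most 1.03 FPKM in any root library NS, against at least 6592 FPKM in the nodulated roots S. By share of reads, the marker lists were thus higher in the organ that the labels give. The summed FPKM of the Casparian list overlapped between the organs, at between 912 and 1211 in shoots and between 989 and 1311 in roots. Shoot library 1 read higher than the other shoot libraries for short genes, with a median deviation of 0.45 on the log2 scale over the 279 tested genes shorter than 600 bases, and root library 3 read lower than the other root libraries by a median of -0.25. The part of this trend in the spread of short genes was not tested.

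A bound on the RNA carried over between organs came from genes with no reads in one of them. A gene described as the 14 kDa proline-rich protein DC2.15 (LotjaGi1g1v0382200) was at 209.5, 148 and 150.3 FPKM in the shoot libraries, with 0 reads in each of the 3 root libraries. Its level was at least 10049-fold higher in shoots, taking 3 reads in each root library as the floor. A GDSL esterase/lipase gene (LotjaGi6g1v0315500) showed the opposite, with 230.3, 181 and 195 FPKM in roots and 0 reads in each shoot library, at least 5255-fold higher in roots. At the floor these genes allow at most 0.00995% of the shoot level in roots and 0.0190% of the root level in shoots. These bounds cover counting error only.

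Of the 17288 genes tested, 4555 (26.3%) were called higher in shoots and 4529 (26.2%) higher in roots. With a log2 change of at least 1 in size as a second condition, 2789 genes (16.1%) were higher in shoots and 2444 (14.1%) higher in roots. The 3 shoot libraries were all above the 3 root libraries for 30.4% of the genes and all below them for 30.9%, and 114 of the 9084 called genes overlapped between organs. The split between organs depends on the scaling. With the libraries scaled to their total reads on genes in place of the authors' size factors, the median log2 change over all tested genes moved from -0.04 to -0.35 and the calls became 3469 higher in shoots and 7739 higher in roots. With quantile normalization the median was -0.11, with 4378 and 5404 calls. Changes are given below under the authors' scaling, and lists whose direction flips under another scaling are named. Counts of list members below are to be read against the 26.3 and 26.2% over all genes. In each called gene named below, all 3 libraries of one organ lay above all 3 of the other.

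**Figure D1:**
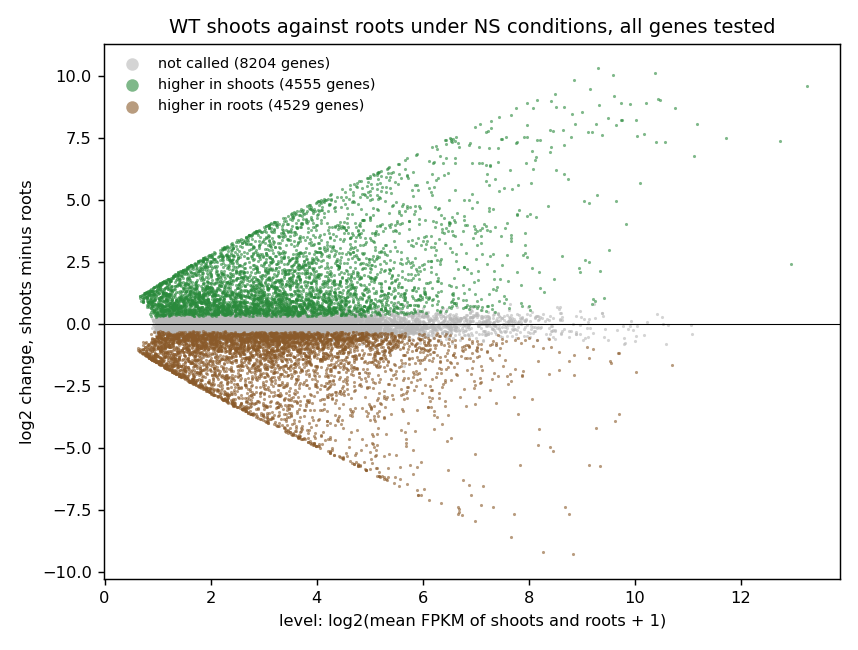
Log2 change of shoots minus roots (vertical axis) against the level of the gene, log2 of the mean FPKM of both organs plus 1 (horizontal axis), 1 point for each of the 17288 genes tested. Green points are the 4555 genes called higher in shoots and brown points the 4529 called higher in roots, grey points were not called, and the sloping outer edges are genes near 0 FPKM in the other organ.

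On the log2(FPKM + 1) scale, 228 called genes had a change of 5 or more, against 102 genes with -5 or less. On this scale the change of a gene near 0 in one organ is bounded by its level in the other. Genes on in one organ only were more frequent in roots. There, 177 genes reached 1 FPKM in all 3 root libraries with 0 reads in shoots, against 86 genes the other way. The gene with the largest increase in shoots, described as the auxin-binding protein ABP19a (LotjaGi3g1v0415000, chromosome 3, 82020403-82021969 on LjG1.1), was at 1434, 1218 and 1155 FPKM in shoots and at 0, 0 and 0.0115 in roots (log2 change 10.30 ± 0.13, adjusted p = 4.2e-09). A beta-glucosidase 12 gene (LotjaGi3g1v0295900) was at 869, 840.0 and 1066 FPKM in shoots and at 0.0508, 0 and 0.00846 in roots (9.82 ± 0.13). A gene with no description (LotjaGi3g1v0062400) was at 2334, 1070.0 and 1213 FPKM in shoots and at 0.543, 0.403 and 0.271 in roots (10.01 ± 0.28), with shoot library 1 far above the other shoot libraries. The remaining members of the 6 largest increases were genes of carbon fixation, chloroplastic fructose-bisphosphate aldolase 2, Rubisco activase and the Rubisco small subunit. On the root side, a gene described as the subtilisin inhibitor CLSI-II (LotjaGi2g1v0163300, chromosome 2, 56967285-56979484) was at 0.253, 0.251 and 0.734 FPKM in shoots and at 1092, 1093 and 561 in roots (-9.29 ± 0.27, adjusted p = 3.0e-08). It was followed by the nitrate transporter *NRT2.4*, by another DC2.15 gene (LotjaGi4g1v0207900, -8.59), by BURP domain protein 17 (LotjaGi3g1v0506700, -7.93) and by peroxidase 4 (LotjaGi1g1v0109000, -7.71). The BURP domain protein RD22 (LotjaGi1g1v0377600) closed the 6, with 5.39, 1.77 and 3.12 FPKM in shoots and 919, 994 and 669.8 in roots (-7.67 ± 0.30). Its decimal point could also be placed otherwise in the table, so that its values are less certain than those of the other genes.

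The genes with the highest levels in shoots were the Rubisco small subunit (19426 ± 2092 FPKM), chlorophyll a-b binding protein AB80 (13638 ± 346), metallothionein-like protein 2 (13335 ± 5988), photosystem II protein W (6711 ± 1112) and chlorophyll a-b binding protein CP29.1 (4614 ± 235). In roots they were the aquaporin PIP-type 7a (2525 ± 337 FPKM), a gene with no description (LotjaGi6g1v0077300_LC, 2469.6 ± 225), metallothionein-like protein 2 (2395 ± 623), 40S ribosomal protein S29 (2149 ± 510.2) and another gene with no description (LotjaGi1g1v0076000_LC, 1979.9 ± 307). Metallothioneins are small cysteine-rich proteins that bind metals. Metallothionein-like protein 2 (LotjaGi3g1v0224500) was at 20240.3, 9567 and 10199 FPKM in shoots and at 2772, 2736 and 1676 in roots (log2 change 2.43 ± 0.56, adjusted p = 0.0061), and this call was lost under quantile normalization (-0.01, adjusted p = 0.97) and without the filter on low values (2.43, adjusted p = 0.18). The ribosomal protein was not called (-0.05 ± 0.42, adjusted p = 0.94), with overlapping libraries, except under quantile normalization (-1.14, adjusted p = 0.00068). Both genes with no description were not called either (-0.43 and -0.83), but were called higher in roots under total scaling (-0.79 and -1.19, adjusted p = 0.020 and 0.0028) and under quantile normalization (-2.10 and -1.98, adjusted p = 3.2e-06 and 0.0015). The second was also called with the filter of 5 FPKM (adjusted p = 0.034), by limma voom (0.0028) and without shoot library 1 (0.049).

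Photosynthesis genes were the most one-sided group. Of 46 tested members of the photosystem and light harvesting list, 41 were higher in shoots and 2 higher in roots, with a median log2 change of 7.32, against -0.04 over all genes. Chlorophyll a-b binding protein AB80 (LotjaGi4g1v0026000), which binds the pigments that capture light, was at 13552, 13342 and 14018 FPKM in shoots and at 101, 101 and 54.9 in roots (log2 change 7.35 ± 0.33, adjusted p = 3.0e-07). Chlorophyll a-b binding protein 40 (LotjaGi2g1v0128900) showed the largest change of the list, with 836, 661 and 669.6 FPKM in shoots and 0.388, 0.137 and 0.0485 in roots (9.25 ± 0.16). All 41 members higher in shoots changed by at least 2-fold on this scale. Low transcript levels of photosystem genes were measured in roots too, where between 35 and 39 of the 75 members in the table reached 1 FPKM. The 2 members higher in roots were a cytochrome b6-f iron-sulfur subunit (LotjaGi2g1v0183500_LC, 1.24 FPKM in shoots and 2.67 in roots) and a photosystem II CP43 gene (LotjaGi1g1v0012300_LC, 0.692 and 1.51 FPKM), both at low levels in either organ. The call of the cytochrome gene was lost when any 1 of the shoot libraries was left out (adjusted p between 0.057 and 0.079), and its change was -0.40 without root library 3.

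Carbon fixation followed the same pattern, with 14 of 18 tested members higher in shoots, 2 higher in roots and a median of 4.94. The Rubisco small subunit (LotjaGi2g1v0052900, chromosome 2, 10412173-10414787), part of the enzyme that fixes carbon dioxide, was at 21842, 18213 and 18225 FPKM in shoots and at 24.9, 30.7 and 17.9 in roots (log2 change 9.60 ± 0.28, adjusted p = 2.9e-08). Rubisco activase (LotjaGi6g1v0063500, chromosome 6, 11727085-11732810), which frees the enzyme of inhibitory sugar phosphates, was at 2397, 2686 and 2887 FPKM in shoots and at 1.76, 1.41 and 1.1 in roots (10.10 ± 0.16). Sedoheptulose-1,7-bisphosphatase (LotjaGi6g1v0070200), which helps to rebuild the acceptor of carbon dioxide, was at 763, 813 and 842 FPKM in shoots and at 0.861, 0.906 and 0.842 in roots (8.75 ± 0.12). Phosphoribulokinase (LotjaGi2g1v0340500), which makes this acceptor, had 898 ± 67.9 FPKM in shoots and 1.60 ± 0.325 in roots (8.44 ± 0.15). The genes described as cytosolic fructose-1,6-bisphosphatase, an enzyme of sucrose synthesis outside the chloroplast, were called in both directions. The most abundant (LotjaGi5g1v0291200) was at 201, 169.8 and 174 FPKM in shoots and at 0.0236, 0 and 0.0393 in roots (7.48 ± 0.12). The 2 members of the list higher in roots were also of that description (LotjaGi6g1v0356500, -0.92, and LotjaGi2g1v0132900, -0.53), at between 0.729 and 11.6 FPKM in the 6 libraries. The call of the second was lost without root library 1 or 2 or shoot library 2 or 3 (adjusted p between 0.052 and 0.10). The list also holds chaperonins that bind Rubisco.

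Photorespiration salvages the carbon lost when Rubisco reacts with oxygen, in chloroplasts, peroxisomes and mitochondria. Of 16 tested members 10 were higher in shoots and 2 higher in roots (median 1.99). The list also holds D-3-phosphoglycerate dehydrogenases, which are not photorespiratory enzymes and whose description holds the words glycerate dehydrogenase. Among the 2 members higher in roots was 1 of these (-0.75 ± 0.14). The H protein of the glycine cleavage system (LotjaGi2g1v0415700) was at 2441, 1858 and 1912 FPKM in shoots and at 6.55, 6.77 and 4.46 in roots (8.23 ± 0.20). Genes of one description differed in direction here. A glycolate oxidase gene described as GLO1 (LotjaGi3g1v0145600) had 1699 ± 111 FPKM in shoots and 2.53 ± 0.408 in roots (8.92 ± 0.15), while another of the same description (LotjaGi4g1v0360300) had 5.88 ± 0.855 FPKM in shoots and 29.3 ± 5.36 in roots (-2.13 ± 0.17).

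Chlorophyll synthesis genes were higher in shoots for 20 of 25 tested members and higher in roots for 3 (median 2.30). Geranylgeranyl diphosphate reductase (LotjaGi4g1v0249700), which makes the phytol tail of chlorophyll, was at 693, 797 and 898 FPKM in shoots and at 11.8, 12.2 and 9.59 in roots (6.03 ± 0.17). The 3 members higher in roots were a porphobilinogen deaminase (LotjaGi4g1v0340300, -2.76), a glutamyl-tRNA reductase 2 (LotjaGi4g1v0042400, -1.62) and a ChlI subunit of magnesium chelatase (LotjaGi6g1v0325100, -0.70). The first of these acts early in the pathway, which also leads to heme, and was at 0.0788, 0.230 and 0.389 FPKM in shoots and at 7.32, 8.89 and 5.94 in roots.

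Ribosomal proteins separated by compartment. Of 71 tested plastid-type ribosomal proteins, 40 were higher in shoots and 1 higher in roots (median 2.44). The highest, chloroplastic 50S protein L21 (LotjaGi5g1v0280200), was at 426, 413 and 416 FPKM in shoots and at 22.3, 22.1 and 12.3 in roots (4.44 ± 0.23). Of 177 tested cytosolic ribosomal proteins, 3 were higher in shoots and 5 higher in roots (median 0.07), far under the 26.3 and 26.2% over all genes, but under total scaling 37 and under quantile normalization 59 were called higher in roots. Of the 20 genes described with the words proteasome subunit, which leaves out most subunits of the regulatory particle, 0 were called by limma and 0 by voom, and 0 had an unadjusted p under 0.05 (median -0.05). Under total scaling 7 of them were higher in roots, and under quantile normalization 4. In each of the 20, shoot library 1 was the highest shoot library and root library 3 the lowest root library. The genes thus share a deviation of these libraries and are not 20 separate results. The highest cytosolic ribosomal protein in roots, 40S protein S29, was at 3019.8, 1774 and 1576 FPKM in shoots and 2529, 2349 and 1569 in roots. Proteasome subunits were below that level in each organ, as with subunit beta type-5 (LotjaGi1g1v0237700) at 107.5 ± 16.8 FPKM in shoots and 125 ± 29.3 in roots.

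Starch genes were higher in shoots for 23 of 32 tested members and higher in roots for 6 (median 1.19). The small subunit of ADP-glucose pyrophosphorylase (LotjaGi1g1v0010500), the enzyme that makes the substrate of starch synthesis, was at 250.5, 281 and 313 FPKM in shoots and at 40.0, 42.0 and 33.8 in roots (2.83 ± 0.16). Starch synthase 1 (LotjaGi1g1v0287000) had 43.7 ± 6.63 FPKM in shoots and 3.83 ± 0.595 in roots. Beta-amylases, which break starch down, went in both directions. A beta-amylase 3 gene (LotjaGi2g1v0417900) was at 112, 103 and 83.2 FPKM in shoots and at 2.12, 2.64 and 3.43 in roots (4.75 ± 0.17), while its neighbour (LotjaGi2g1v0418000) was at 3.53, 3.10 and 2.55 FPKM in shoots and at 5.76, 38.8 and 45.6 in roots (-2.52 ± 0.64). Root library 1 was low for this second gene and for the inactive beta-amylase 9 genes LotjaGi6g1v0305800_LC (2.60, 12.8 and 14.8 FPKM in roots) and LotjaGi6g1v0306000 (1.48, 6.74 and 7.67), so that the spread in roots was wide while shoots and roots still did not overlap.

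Light receptors and clock genes were mostly higher in shoots, 34 of 51 tested members against 4 higher in roots (median 0.90). Phototropin-2 (LotjaGi4g1v0149200), a receptor of blue light, was at 29.0, 34.3 and 37.4 FPKM in shoots and at 0.925, 1.01 and 1.32 in roots (4.05 ± 0.14). The CONSTANS-like 6 gene (LotjaGi4g1v0452600) was at 38.9, 49.2 and 55.4 FPKM in shoots with 0 reads in each root library, at least 1709-fold higher in shoots. Phytochrome A (LotjaGi5g1v0235100), a receptor of far-red light that is most abundant in plants kept in the dark, was among the 4 members higher in roots, with 12.5, 19.9 and 19.3 FPKM in shoots and 26.3, 24.6 and 28.4 in roots (-0.62 ± 0.18), a call that was lost without root library 1 or 3 (adjusted p = 0.053 and 0.058). B-box protein 21 (LotjaGi5g1v0010400) was higher in roots by a larger margin, at 4.67 ± 0.565 FPKM in shoots and 43.6 ± 4.14 in roots. GIGANTEA, a part of the circadian clock, was at 66.9 ± 12.2 FPKM in shoots and 39.5 ± 11.0 in roots (0.76 ± 0.22). Its call was lost under total scaling (0.41, adjusted p = 0.19), under quantile normalization (0.58, adjusted p = 0.12) and without root library 1 or 2 or shoot library 2 or 3 (adjusted p between 0.064 and 0.075).

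Shoot patterning genes were higher in shoots for 30 of 58 tested members and higher in roots for 8 (median 0.48). TCP and YABBY transcription factors, which shape leaves, were among the largest changes. A TCP13 gene (LotjaGi2g1v0266800) was at 13.9, 17.2 and 14.4 FPKM in shoots and at 0.0336, 0.00681 and 0 in roots (3.99 ± 0.12), and a YABBY 2 gene (LotjaGi3g1v0184700) had 19.4 ± 3.31 FPKM in shoots and 0.530 ± 0.0871 in roots. The list also holds genes of other organs. A knotted-1-like 3 gene (LotjaGi6g1v0207800), of a family of homeobox genes of meristems, had 19.0 ± 1.54 FPKM in shoots and 47.6 ± 5.14 in roots (-1.28 ± 0.13), and a TERMINAL FLOWER 1 gene (LotjaGi1g1v0676500) was the largest change on the root side (-2.04 ± 0.22).

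Cuticle genes, which make the waxes and cutin of the shoot surface, were higher in shoots for 26 of 38 tested members and higher in roots for 9 (median 2.58). 3-ketoacyl-CoA synthase 6 (LotjaGi5g1v0340300), which extends the fatty acids of waxes, was at 241, 164 and 180.4 FPKM in shoots and at 0.0231, 0.0561 and 0.0462 in roots (7.54 ± 0.16, adjusted p = 8.2e-09). ECERIFERUM 26 (LotjaGi4g1v0371900) and the aldehyde decarbonylase CER1 (LotjaGi3g1v0073300), which act in the same pathway, had 182 ± 41.1 and 60.4 ± 13.5 FPKM in shoots and 0.0957 ± 0.0676 and 0.0276 ± 0.0414 in roots. The fatty acyl-CoA reductases were split. The alcohol-forming reductase LotjaGi3g1v0175300 was at 189 FPKM in shoots and 3.37 in roots, and its neighbour, reductase 3 (LotjaGi3g1v0175200), was at 2.1 FPKM in shoots and 16.7 in roots. Such reductases make wax alcohols in shoots and alcohols of suberin in roots.

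Genes of high affinity nitrate uptake were among the largest changes on the root side. *NRT2.4* (LotjaGi3g1v0487600, chromosome 3, 90521978-90524577), a high affinity nitrate transporter, was at 0.00975, 0.0570 and 0.0334 FPKM in shoots and at 571, 738 and 526 in roots (log2 change -9.20 ± 0.15, adjusted p = 5.0e-09). Beside it lies a gene described as *NRT2.1* (LotjaGi3g1v0487700_LC, chromosome 3, 90527386-90529889), with 0 reads in each shoot library and 62.8, 68.4 and 83.2 FPKM in roots, at least 2126-fold higher in roots. Shoots were thus near 0 for both. As neighbours of one family these genes may share reads, and how the counting treated such reads was not tested.

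Other transporters of nitrate and ammonium, among them the NPF family of nitrate and peptide transporters, were higher in either organ. Over the whole list of nitrate and ammonium transport, 24 of 48 tested members were higher in shoots and 14 higher in roots (median 0.28), but under total scaling the counts turned to 20 and 23. NPF2.13 (LotjaGi4g1v0183700), which in *Arabidopsis* moves nitrate between leaves, was at 71.2, 56.9 and 51.4 FPKM in shoots and at 0.116, 0.361 and 0.404 in roots (5.55 ± 0.16). NPF6.3 (LotjaGi2g1v0424800), the homolog of a nitrate transporter and sensor, was at 5.33, 4.11 and 4.37 FPKM in shoots and at 59.9, 60.7 and 55.9 in roots (-3.42 ± 0.13). A further gene described as NPF6.3 (LotjaGi2g1v0425100) had 6.66 ± 1.12 FPKM in shoots and 0.171 ± 0.0916 in roots (2.70 ± 0.14). Ammonium transporter 1;1 (LotjaGi6g1v0009500) was at 70.0, 64.5 and 57.2 FPKM in shoots and at 64.7, 72.1 and 55.2 in roots, and these values overlapped (0.00 ± 0.16, adjusted p = 0.99), although a change of -0.36 was called under total scaling (adjusted p = 0.031). Ammonium transporter 1;2 (LotjaGi5g1v0205600) was higher in roots, with 12.5 ± 1.03 FPKM in shoots and 37.7 ± 3.19 in roots (-1.52 ± 0.13).

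Nitrogen assimilation genes were called in both directions, with 8 of 30 tested members (26.7%) higher in shoots and 12 (40%) higher in roots (median -0.21). Over all genes these shares were 26.3 and 26.2%, so that the share higher in shoots was that of all genes. Under total scaling the counts were 6 and 16. The list also holds 3 folylpolyglutamate synthases, whose description names glutamate. Nitrate reductase (LotjaGi1g1v0152000), the first enzyme of nitrate assimilation, was at 193, 244 and 185 FPKM in shoots and at 265, 297 and 361 in roots (-0.57 ± 0.21, adjusted p = 0.0497), at the limit of a call. This call was lost when any 1 library was left out (adjusted p between 0.061 and 0.18), without the filter on low values (0.075) and with the replicate block (0.065). Nitrite reductase (LotjaGi4g1v0074400) was at 311, 381 and 277 FPKM in shoots and at 418, 409 and 355 in roots and was not called (-0.29 ± 0.21, adjusted p = 0.29), except under total scaling (-0.66, adjusted p = 0.012) and quantile normalization (-0.83, adjusted p = 0.0041). Genes of glutamine synthetase, which takes up the ammonium, were called in both directions. Those described as its nodule isozyme differed in direction (2.42 ± 0.13, adjusted p = 7.7e-07, and -0.68 ± 0.21, adjusted p = 0.027). The cytosolic isozyme (LotjaGi6g1v0055300) was at 196, 154 and 179 FPKM in shoots and at 796, 826 and 612 in roots (-2.07 ± 0.22, adjusted p = 6.3e-05), and the leaf isozyme of the chloroplast (LotjaGi6g1v0300700) was at 883, 1126 and 1163 FPKM in shoots and at 244, 279 and 207 in roots (2.11 ± 0.24, adjusted p = 9.3e-05). NADH-dependent glutamate synthase (LotjaGi1g1v0224700), which uses the glutamine, was higher in roots (-1.29 ± 0.31), where library 3 was apart at 38.0, 40.0 and 87.8 FPKM.

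The genes of asparagine synthetase went in both directions. *LjASN1* (LotjaGi1g1v0118200, chromosome 1, 18678532-18685507) was at 472, 431 and 387 FPKM in shoots and at 653, 695 and 563 in roots. All root libraries were above all shoot libraries, but the change was not called (-0.57 ± 0.22, adjusted p = 0.065). It was called higher in roots under total scaling (-0.93, adjusted p = 0.0011), quantile normalization (-1.14, adjusted p = 5.6e-05), limma voom on recovered reads (-0.57, adjusted p = 0.022) and without root library 3 (-0.65, adjusted p = 0.024). The gene described as asparagine synthetase 2 (LotjaGi6g1v0130800, chromosome 6, 36808984-36813744) was at 5.42, 3.27 and 3.11 FPKM in shoots and at 832, 888 and 715 in roots (-7.39 ± 0.20, adjusted p = 2.2e-08). Its level in roots was above that of *LjASN1* in each root library, on the same scale per length. The gene described as asparagine synthetase 3 (LotjaGi6g1v0088100, chromosome 6, 17798176-17804573) was higher in shoots, at 6.35, 6.57 and 6.43 FPKM there and at 2.72, 2.35 and 2.20 in roots (1.13 ± 0.12, adjusted p = 5.1e-05). A protein with an asparagine synthetase domain (LotjaGi4g1v0087300) was near 1 FPKM in each library and was not called (0.14 ± 0.11). Another 2 genes described as asparagine synthetase 1 (LotjaGi1g1v0413500_LC and LotjaGi1g1v0413600_LC) had 0 reads in all 6 libraries.

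**Figure D2:**
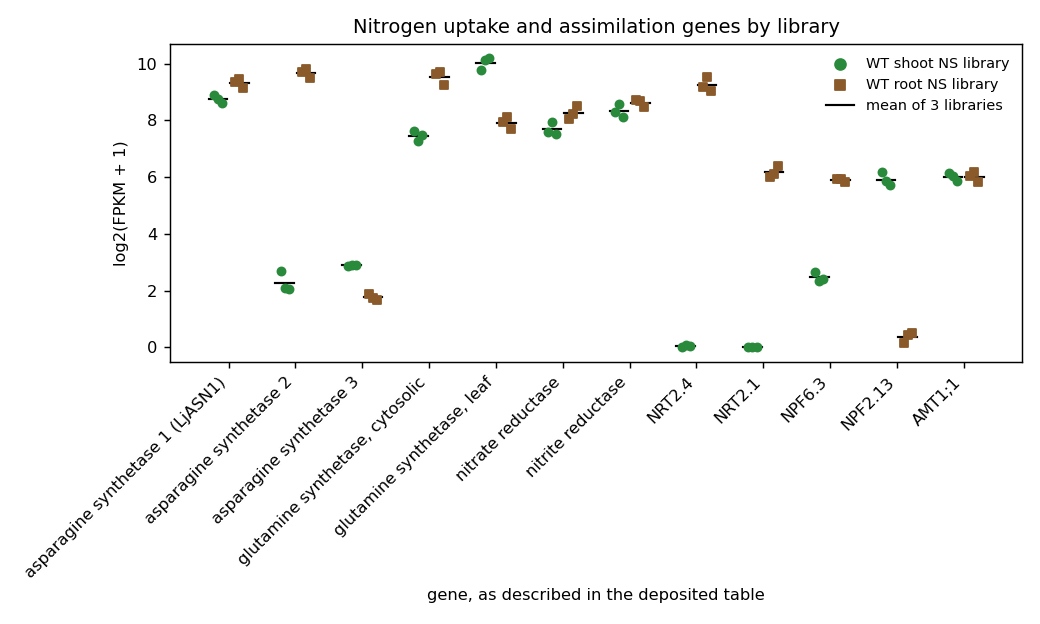
Log2(FPKM + 1) (vertical axis) of 12 genes of nitrogen uptake and assimilation (horizontal axis) in each WT NS library, with green circles for shoots, brown squares for roots and a black line at the mean of 3 libraries. Asparagine synthetase 2, NRT2.4, NRT2.1 and NPF6.3 sit far higher in roots and NPF2.13 in shoots, while the AMT1;1 libraries of both organs overlap between 55.2 and 72.1 FPKM.

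Amino acid transporters were higher in shoots for 11 (20.8%) and in roots for 18 (34.0%) of 53 tested members (median -0.23). Over all genes these shares were 26.3 and 26.2%. The lysine histidine transporter-like 8 gene (LotjaGi2g1v0357700), the highest of the list, was at 61.3, 50.5 and 31.6 FPKM in shoots and at 198, 220.1 and 155 in roots (-2.01 ± 0.26). Amino acid permease 6 (LotjaGi1g1v0411300) was at 58.4 FPKM in shoots and 59.9 in roots, with overlapping libraries (-0.04 ± 0.15). The GABA transporter 1 gene (LotjaGi3g1v0481200) was the largest change on the root side, at 2.55, 1.52 and 1.42 FPKM in shoots and 36.9, 47.1 and 30.7 in roots (-3.80 ± 0.20).

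Genes of sucrose use and sugar transport were called in both organs. Of 51 tested members of the sucrose and sugar transport list, 17 were higher in shoots and 21 higher in roots (median -0.33). Sucrose transporter SUC2 (LotjaGi5g1v0281900), which loads the phloem in *Arabidopsis*, was at 93.4, 147 and 151 FPKM in shoots and at 51.0, 55.5 and 65.1 in roots (1.15 ± 0.22). A SWEET14 gene (LotjaGi4g1v0419400), of a family that lets sugars out of cells, was at 151, 102 and 118 FPKM in shoots and at 4.76, 7.25 and 5.61 in roots (4.18 ± 0.19). Genes that take up hexoses or split sucrose were among the largest changes in roots. Sugar transport protein 5 (LotjaGi1g1v0242200) was at 0, 0.0233 and 0 FPKM in shoots and at 29.5, 31.3 and 28.7 in roots (-4.94 ± 0.11). A cell wall invertase (LotjaGi3g1v0424000) had 0.427 ± 0.0591 FPKM in shoots and 19.1 ± 1.14 in roots, and a sucrose synthase (LotjaGi4g1v0320300) had 99.8 ± 7.77 in shoots and 276 ± 8.03 in roots. The most abundant sucrose synthase (LotjaGi6g1v0220900) was at 203 ± 9.49 FPKM in shoots and 254 ± 6.0 in roots and was not called (-0.33 ± 0.17, adjusted p = 0.14), except under total scaling (-0.69, adjusted p = 0.0022) and quantile normalization (-0.77, adjusted p = 0.0032).

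Aquaporins, the water channels of membranes, were higher in roots for 11 and in shoots for 7 of 26 tested members (median -0.43), and took 0.66% of the reads in shoots and 2.05% in roots. PIP-type 7a (LotjaGi1g1v0080000) was at 805, 765 and 811 FPKM in shoots and at 2689, 2749.8 and 2137 in roots (-1.66 ± 0.30, adjusted p = 0.0017). A TIP2-2 gene of the vacuole membrane (LotjaGi2g1v0422000) was at 0.0510, 0.0746 and 0 FPKM in shoots and at 213, 242 and 152 in roots (-7.58 ± 0.18). The boric acid channel NIP5-1 (LotjaGi5g1v0286900) had 2.09 ± 0.239 FPKM in shoots and 66.1 ± 2.1 in roots. On the shoot side, the neighbours NIP1-1 (LotjaGi6g1v0317200) and NIP1-2 (LotjaGi6g1v0317300) had 200.0 ± 15.5 and 99.7 ± 23.8 FPKM in shoots and 14.2 ± 2.18 and 2.95 ± 0.697 in roots.

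Mineral transporters were called in both directions, 27 of 71 higher in shoots and 24 higher in roots (median 0.05), and the majority turned to roots under total scaling (24 against 30). The largest changes were in uptake transporters of roots. A phosphate transporter 1 gene (LotjaGi6g1v0005700) had 0 reads in each shoot library and 127, 164 and 119 FPKM in roots, at least 5143-fold higher in roots. High affinity sulfate transporter 2 (LotjaGi2g1v0263100) also had 0 reads in shoots and 73.1, 76.9 and 74.4 FPKM in roots, at least 3417-fold higher in roots. Potassium transporter 5 (LotjaGi3g1v0386000) had 0.210 ± 0.0405 FPKM in shoots and 57.2 ± 6.90 in roots. Some genes described as chloroplastic were higher in shoots, with ferric reduction oxidase 7 (LotjaGi6g1v0277600) at 81.0 ± 10.6 FPKM in shoots and 0.860 ± 0.197 in roots and phosphate transporter 2-1 (LotjaGi2g1v0325000) at 19.1 ± 3.73 in shoots and 0.903 ± 0.235 in roots.

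Class III peroxidases, secreted enzymes that cross-link cell walls, were the most root-sided list. Of 58 tested members 40 were higher in roots and 5 higher in shoots, with a median log2 change of -2.11, and 39 of the 40 changed by at least 2-fold. Peroxidase 4 (LotjaGi1g1v0109000) was at 0, 0 and 0.0317 FPKM in shoots and at 223, 241 and 173 in roots (-7.71 ± 0.15, adjusted p = 6.4e-09). The most abundant member, peroxidase 42 (LotjaGi4g1v0014800), was at 346, 266 and 326 FPKM in shoots and at 884, 874 and 671 in roots (-1.37 ± 0.24). The largest exception was a cationic peroxidase 2 gene (LotjaGi6g1v0353400, chromosome 6, 66567930-66572506), at 577, 322 and 397 FPKM in shoots and at 0, 0.0152 and 0.0374 in roots (8.69 ± 0.20). A close gene of the same description (LotjaGi6g1v0353600, chromosome 6, 66580877-66583311) showed the reverse, at 0.139, 0.130 and 0.0477 FPKM in shoots and 109.9, 141 and 97.9 in roots (-6.71 ± 0.15).

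Genes of Casparian strips, suberin and lignin were less one-sided, with 34 of 77 tested members higher in roots and 25 higher in shoots (median -0.16). Casparian strip membrane protein 5 (LotjaGi5g1v0099800), which forms the strip in the root endodermis, had 0 reads in each shoot library and 37.7, 41.8 and 29.1 FPKM in roots, at least 496-fold higher in roots. Laccase-7 (LotjaGi1g1v0218900), of a family that polymerises lignin, was at 0.936, 0.617 and 0.664 FPKM in shoots and at 64.8, 72.5 and 62.4 in roots (-5.28 ± 0.13). CASP-like proteins are broader than Casparian strips, and CASP-like 1E1 (LotjaGi4g1v0346000) was at 59.8, 37.0 and 42.0 FPKM in shoots and at 0.291, 0.512 and 0.428 in roots (5.04 ± 0.18). Glycerol-3-phosphate acyltransferase 8 (LotjaGi3g1v0384200), a gene of cutin or suberin, had 98.9 ± 9.61 FPKM in shoots and 14.8 ± 1.13 in roots.

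Root patterning genes were higher in roots for 30 and in shoots for 9 of 63 tested members (median -0.38). Some LOB domain proteins, which are plant transcription factors, had large changes in this list. A gene described as LOB domain protein 38 (LotjaGi5g1v0323400), of a clade that responds to nitrate in *Arabidopsis*, was at 0.203, 0.0791 and 0 FPKM in shoots and at 60.8, 89.1 and 88.0 in roots (-6.18 ± 0.17). Another of that description (LotjaGi4g1v0096300) was the most abundant of the list, with 158 ± 10.5 FPKM in shoots and 226 ± 45.1 in roots, and was not called (-0.49 ± 0.20, adjusted p = 0.073). It was called higher in roots under total scaling (-0.85, adjusted p = 0.0013), under quantile normalization (-0.93, adjusted p = 0.00019) and without root library 3 (-0.67, adjusted p = 0.0069). LOB domain protein 21 (LotjaGi1g1v0075100) went the other way, with 22.1 ± 5.88 FPKM in shoots and 0.565 ± 0.163 in roots. The neighbours LotjaGi5g1v0248500 and LotjaGi5g1v0248600, described as protective proteins of seeds and root hairs, had 16.8 and 12 FPKM in roots and 0.0326 and 0 in shoots.

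Flavonoid and isoflavonoid genes were called in both directions. Of 81 tested members 23 were higher in shoots and 37 higher in roots (median -0.36). The main chalcone synthase gene (LotjaGi3g1v0078700), at the entry of the pathway, was at 2197, 2112 and 2102 FPKM in shoots and at 45.4, 49.3 and 29.5 in roots (5.69 ± 0.24, adjusted p = 1.8e-07). Flavonol synthase (LotjaGi1g1v0154100) had 55.0 ± 10.2 FPKM in shoots and 0.0313 ± 0.0180 in roots. The isoflavonoid branch makes antimicrobial pterocarpans in legumes. Of 21 tested members whose description names an isoflavone, isoflavanone or pterocarpan, 3 were higher in shoots and 14 higher in roots (median -1.50). Pterocarpan synthase 1 (LotjaGi1g1v0733200) was at 2.49, 0.520 and 0.362 FPKM in shoots and at 278, 265 and 166 in roots (-6.90 ± 0.36), and isoflavone 4'-O-methyltransferase (LotjaGi4g1v0063300) had 0.672 ± 0.298 FPKM in shoots and 66.0 ± 13.1 in roots. The 3 members higher in shoots were another pterocarpan synthase 1 gene (LotjaGi1g1v0277900, 1.48 ± 0.44) and a pair of 2-hydroxyisoflavanone synthases (LotjaGi4g1v0063800, 3.17, and LotjaGi4g1v0063900, 2.25). The call of the first was lost without root library 1 or 3 or shoot library 1 (adjusted p between 0.061 and 0.075). The most abundant 2-hydroxyisoflavanone synthase (LotjaGi4g1v0063000) had 64.0 ± 11.7 FPKM in shoots and 181 ± 8.77 in roots (-1.50 ± 0.17). Chalcone-flavanone isomerase 2 (LotjaGi5g1v0359350), shared by the branches, had 313 ± 95.9 FPKM in shoots and 356 ± 105 in roots and was not called (-0.18 ± 0.31), except under quantile normalization (-0.70, adjusted p = 0.0039).

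Terpene genes were higher in roots for 17 and in shoots for 8 of 29 tested members (median -0.58). Beta-amyrin is the precursor of many legume saponins. A pair of genes described as beta-amyrin 28-monooxygenase each had no reads in one organ. One (LotjaGi1g1v0511100) was at 96.1, 57.6 and 62.4 FPKM in shoots with 0 reads in each root library, at least 2301-fold higher in shoots. The other (LotjaGi4g1v0438900) was at 97.6, 98.8 and 78.8 FPKM in roots with 0 reads in each shoot library, at least 2813-fold higher in roots. Lupeol synthase (LotjaGi2g1v0235400) had 0.0362 ± 0.0103 FPKM in shoots and 74.8 ± 8.18 in roots, while a beta-amyrin synthase (LotjaGi3g1v0340000) overlapped between organs (-0.28 ± 0.20) and was called higher in roots only under total scaling (-0.64) and quantile normalization (-0.47).

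Pathogenesis-related genes were higher in roots for 18 (35.3%) and in shoots for 11 (21.6%) of 51 tested members (median -0.08). Over all genes these shares were 26.2 and 26.3%. Large changes were seen on both sides. Class-10 protein 1 (LotjaGi6g1v0254300) was at 146, 74.0 and 77.7 FPKM in shoots and at 1763, 1698 and 988 in roots (-3.91 ± 0.35). A class V chitinase, CHIT5b (LotjaGi4g1v0284200), had 0 reads in shoots and 19.3 ± 2.15 FPKM in roots. On the shoot side, a thaumatin-like protein (LotjaGi4g1v0417500) was at 611, 253 and 621 FPKM in shoots and at 23.0, 37.9 and 9.33 in roots (4.43 ± 0.51), and an endochitinase (LotjaGi4g1v0137500) had 76.3 ± 25.2 FPKM in shoots and 0.845 ± 0.196 in roots. In both genes shoot library 2 was the lowest of the shoot libraries.

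Strigolactones are hormones made from carotenoids mainly in roots, and act on shoot branching and root symbioses. Of 7 tested members of this list, 3 were higher in roots and 3 higher in shoots. Among the latter was a probable carotenoid cleavage dioxygenase 4 (LotjaGi2g1v0350600), at 117 ± 25.6 FPKM in shoots and 3.35 ± 0.873 in roots (4.76 ± 0.21). It entered the list by the words of its description, so that the even split is not one of strigolactone synthesis genes. Carotenoid cleavage dioxygenase 8 (LotjaGi1g1v0405500), which acts in strigolactone synthesis, was at 6.24, 4.74 and 3.30 FPKM in shoots and at 61.6, 59.0 and 54.4 in roots (-3.39 ± 0.19). Dioxygenase 7 (LotjaGi1g1v0599900), which acts before it, was at 0, 0.0219 and 0.107 FPKM in shoots and at 4.75, 4.66 and 3.26 in roots (-2.31 ± 0.14). The D14 esterase (LotjaGi2g1v0212400), the receptor, was at 53.1, 36.4 and 34.7 FPKM in shoots and at 4.32, 5.08 and 4.31 in roots (2.91 ± 0.18). The genes described as D27 isomerase were split, with LotjaGi6g1v0032800 at 99.6 ± 4.07 FPKM in shoots and 0.335 ± 0.163 in roots and LotjaGi1g1v0714900 at 0.624 ± 0.207 in shoots and 4.73 ± 1.08 in roots.

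Cytokinin genes were higher in roots for 9 and in shoots for 7 of 18 tested members (median -0.46). Cytokinin dehydrogenases break the hormone down. Cytokinin dehydrogenase 3 (LotjaGi4g1v0309900) was at 0, 0 and 0.0969 FPKM in shoots and at 41.4, 45 and 35.6 in roots (-5.33 ± 0.13). Isopentenyltransferases, which make the hormone, were on both sides, with number 3 (LotjaGi5g1v0164300) at 13.7 ± 2.87 FPKM in shoots and 2.70 ± 1.06 in roots and number 5 (LotjaGi4g1v0351300) at 0 in shoots and 2.82 ± 0.850 in roots. Of 11 tested genes whose description names nodulins or nodules, 3 were higher in each organ, and the turn to 3 against 6 under total scaling leaves no direction. Nodulin-21 (LotjaGi4g1v0031500_LC) was at 34.4, 26.6 and 18.0 FPKM in these roots without nodules and at 0.0415, 0.121 and 0.142 in shoots (-4.59 ± 0.21).

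Genes of cell division included few large changes. Of 51 tested cyclins, cyclin-dependent kinases and their inhibitors, 7 were higher in shoots and 13 higher in roots (median -0.13), of which 2 and 1 changed by at least 2-fold on this scale. These shares, 13.7 and 25.5%, were below and close to the 26.3 and 26.2% over all genes. Under total scaling the counts of this list became 2 and 26. Cyclin-B1-2 (LotjaGi3g1v0537400), which acts at mitosis, was at 76.5, 42.4 and 41.4 FPKM in shoots and at 62.5, 60.9 and 35.7 in roots (-0.01 ± 0.30). Cyclin-D1-1 (LotjaGi4g1v0161600) was the largest change, with 6.85 ± 0.903 FPKM in shoots and 1.38 ± 0.529 in roots. Of 32 tested histones 7 were higher in shoots and 2 higher in roots (median 0.38), which turned to 1 and 3 under total scaling. Histone H2B (LotjaGi5g1v0069100) was at 893, 639 and 678 FPKM in shoots and at 513, 481 and 289 in roots (0.81 ± 0.30), and its call was lost when any 1 library was left out (adjusted p between 0.065 and 0.115) and under total scaling (0.45, adjusted p = 0.12) and quantile normalization (0.18, adjusted p = 0.29).

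**Figure D3:**
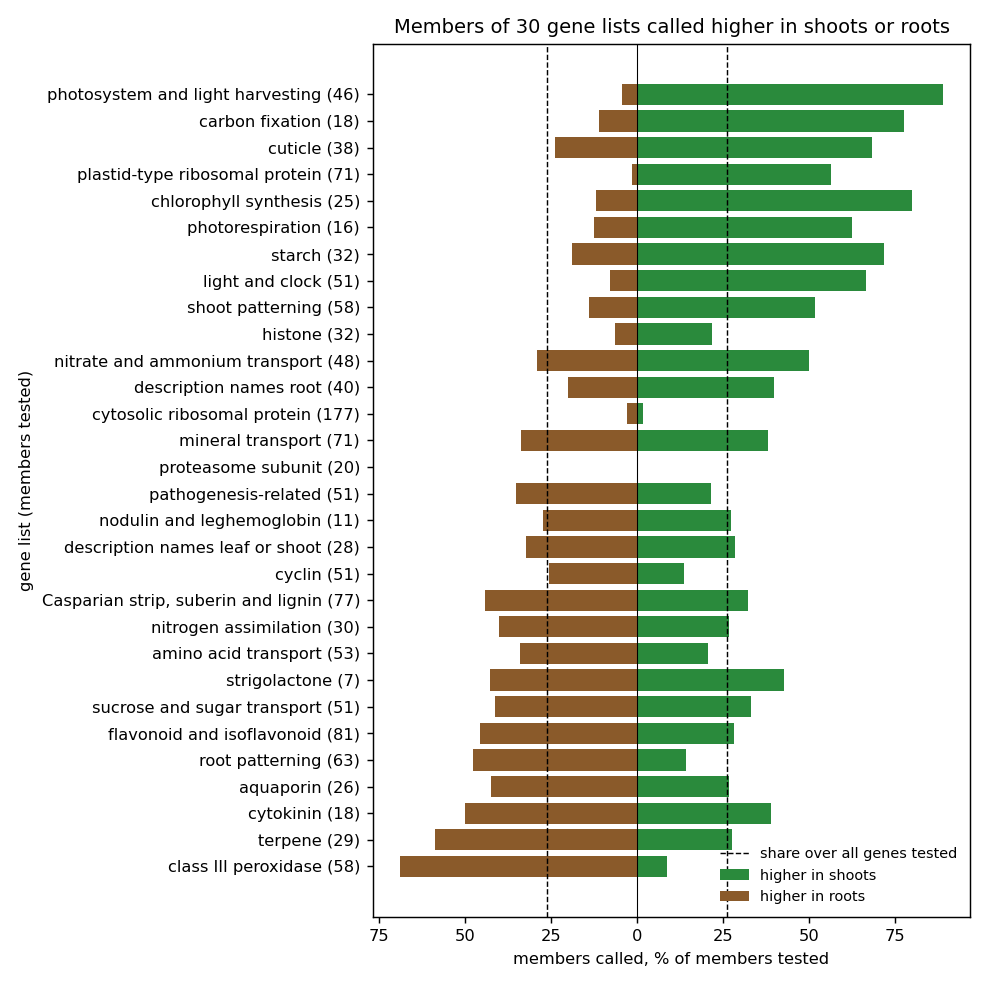
Share of the tested members of 30 gene lists called higher in shoots (green bars to the right) or in roots (brown bars to the left), in percent, ordered by the median log2 change, with the number of members tested in parentheses. The dashed lines mark the 26.3 and 26.2% over all genes, photosystem genes stand at the top and class III peroxidases at the bottom, and nitrate and ammonium transport, mineral transport and histones change their majority under total scaling.

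Genes whose description names an organ were not mostly higher in that organ. Of 40 tested genes whose description names the root, 16 (40%) were higher in shoots and 8 (20%) higher in roots. Of 28 whose description names a leaf or shoot, 8 (28.6%) were higher in shoots and 9 (32.1%) higher in roots, near the 26.3 and 26.2% over all genes. Under total scaling the counts became 13 and 12 for the first list and 4 and 13 for the second. The median of the first list turned from 0.22 to -0.08. Root phototropism protein 3 (LotjaGi3g1v0360200) was at 18.7, 21.4 and 24.2 FPKM in shoots and at 0.105, 0.187 and 0.162 in roots (4.28 ± 0.13). The isozymes of ferredoxin-NADP reductase followed their names. The leaf isozyme of ferredoxin-NADP reductase (LotjaGi4g1v0128500), which hands electrons of photosynthesis to NADP, was at 527, 554 and 573 FPKM in shoots and at 5.30, 5.04 and 3.66 in roots (6.62 ± 0.16). The root isozyme (LotjaGi6g1v0271600), which runs the reaction backwards to supply nitrite reduction, was at 72.2, 51.2 and 51.2 FPKM in shoots and at 451, 577 and 397 in roots (-3.01 ± 0.22).

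Neighbouring genes that share a description were compared next. The table holds 1588 pairs of neighbouring genes with one description, and both members were tested in 353 of them. In 135 pairs both members were called with a log2 change of at least 1 in size, and of these 75 were higher in roots for both members, 31 higher in shoots for both and 29 opposite. By the same rule 16.1% of all genes tested were higher in shoots and 14.1% higher in roots. Some pairs overlap in position, as in a pair of chloroplast envelope quinone oxidoreductase homologs with identical coordinates. A gene within a run of neighbours counts in more than 1 pair. The pair of ABP19a genes (LotjaGi3g1v0414900, chromosome 3, 82011552-82017494, and LotjaGi3g1v0415000) were the farthest apart. The first was at 0, 0 and 0.0496 FPKM in shoots and at 69.5, 61.6 and 47.0 in roots (-5.87 ± 0.16), against 10.30 for the second. A pair of neomenthol dehydrogenase genes on chromosome 3 showed 0.509 ± 0.181 FPKM in shoots and 46.7 ± 5.80 in roots for LotjaGi3g1v0379000, and 20.3 ± 3.06 in shoots and 0.130 ± 0.0125 in roots for LotjaGi3g1v0379100. The non-symbiotic hemoglobin 1 genes, of a protein that removes nitric oxide, were at 25.2 FPKM in shoots and 94.1 in roots (LotjaGi3g1v0504500) and at 226 in shoots and 19.0 in roots (LotjaGi3g1v0504600). These pairs were chosen after their values were seen. Near-identical copies can share reads, and how such reads were counted was not tested.

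**Figure D4:**
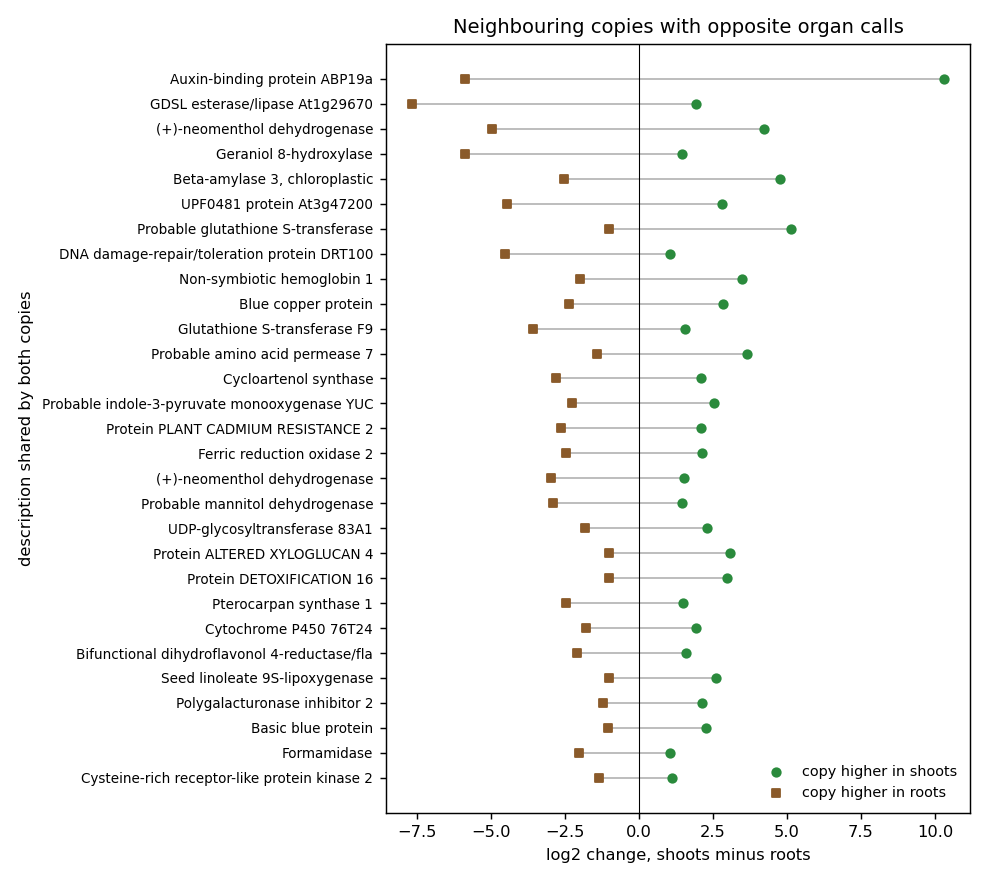
Log2 change of shoots minus roots (horizontal axis) of the 29 pairs of neighbouring genes that share a description (vertical axis) and were called in opposite directions, with a green circle for the copy higher in shoots and a brown square for the copy higher in roots. The pair of ABP19a genes spans from -5.87 to 10.30.

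The same contrast in other plants of the series shares no library with the WT NS comparison. Same-numbered libraries of one organ deviated together across genotypes (correlations from 0.43 to 0.84) and conditions (0.40 to 0.74). The sets are therefore not fully independent of each other. In *Ljasn1‐2* NS, 9071 of 17225 genes were called (52.7%), 4531 higher in shoots and 4540 higher in roots. Of the 9084 genes called in WT NS, 7821 (86.1%) were called in the same direction there, 9 in the opposite direction, 1039 were not called and 215 not tested. In WT S, where roots carried nodules, 9554 of 17341 genes were called (55.1%), with 6780 (74.6%) of the 9084 genes in the same direction, 206 in the opposite direction, 1675 not called and 423 not tested. A total of 6167 genes were called in the same direction in all 3 sets, 3390 higher in shoots and 2777 higher in roots.

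The interaction tests asked whether the organ difference itself differed. Between genotypes under NS conditions, 52 of 17903 genes were called (0.29%), 43 with a higher change in *Ljasn1‐2* and 9 with a lower one. With the replicate number as a block within each organ the count was 454 (250 and 204), and it held all 52. Between NS and S conditions in WT, 3469 of 18163 genes were called (19.1%), 1904 with a higher change of shoots minus roots under S and 1565 with a lower one, and 6940 (3699 and 3241) with the block. Of the photosystem list 1 of 47 members differed between conditions, while of 26 aquaporins 12 had a higher change under S by limma. A lower change was called for 0 of them by limma and 0 by voom, and 0 had an unadjusted p under 0.05 in that direction. NPF6.3 (LotjaGi2g1v0424800), higher in roots under NS conditions, was at 3.89, 2.89 and 2.53 FPKM in shoots and at 0.335, 0.420 and 0.205 in nodulated roots S, where it was higher in shoots (1.63, interaction 5.05 ± 0.20, adjusted p = 1.9e-09). Ammonium transporter 1;2 (LotjaGi5g1v0205600) also turned, with 37.9 ± 5.33 FPKM in shoots S and 3.13 ± 0.221 in roots S (interaction 4.75 ± 0.18, adjusted p = 1.4e-09). Condition and nodules come together in this contrast and cannot be told apart. The same holds for age at harvest if the ages in the methods of the study apply, whereas the labels give 40 days for both conditions.

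**Figure D5:**
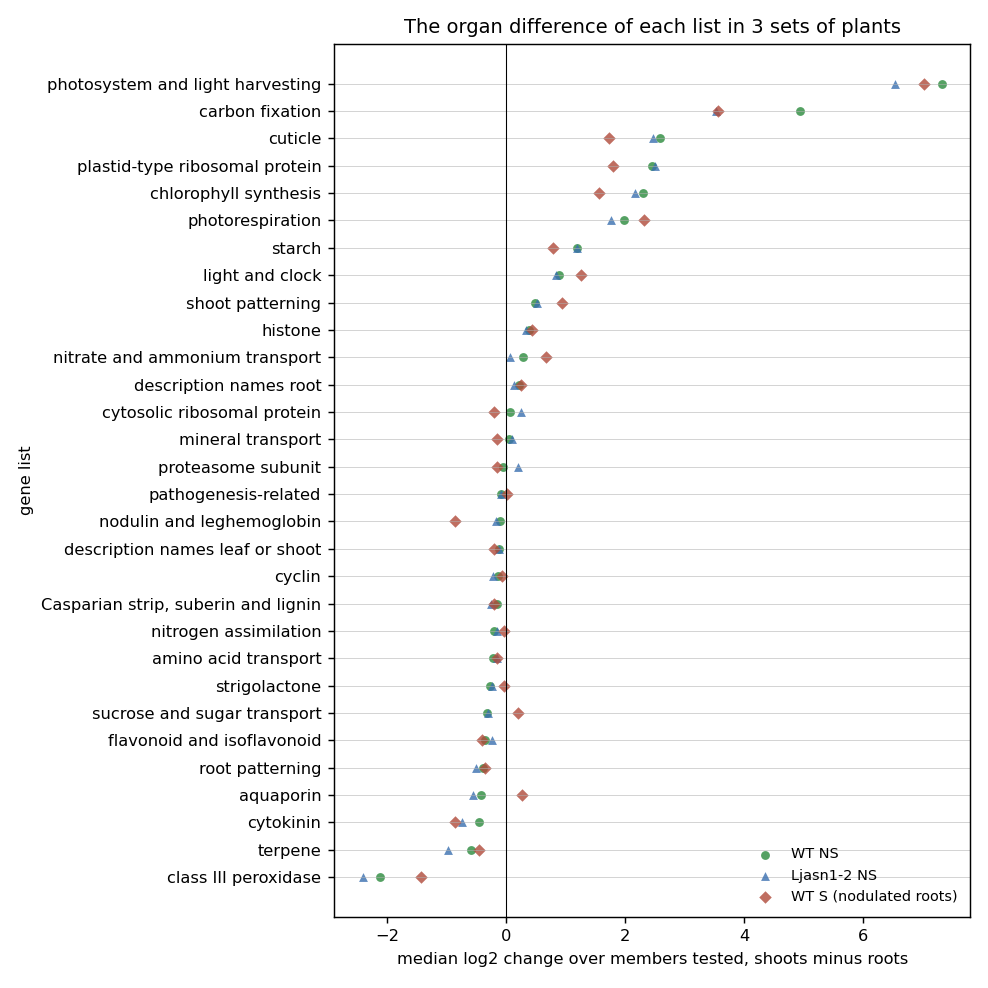
Median log2 change of shoots minus roots over the tested members (horizontal axis) of 30 gene lists (vertical axis) in WT NS (green circles), *Ljasn1‐2* NS (blue triangles) and WT S with nodulated roots (red diamonds). Photosystem genes stand at 7.32, 6.54 and 7.03 and class III peroxidases at -2.11, -2.41 and -1.43, and the aquaporin median is below 0 in both NS sets and above it under S.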

How the data were processed

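RNA of polyadenylated transcripts was sequenced from stranded libraries. The submitters' processing notes name fastp, featureCounts 1.5.0-p3 and DESeq2 1.20.0. The aligner is not given in the sources used here. The authors deposited FPKM values and gene positions on LjG1.1. Values of 1 or more had lost their decimal point, which was restored from the whole read counts behind each value (0 of 384363 such values could not be placed). Of 42 genes with another possible placement, 3 involve these 6 libraries. The planned test was kept, since it assumed FPKM. Recovered reads gave the depth per library. Tests used limma 3.58.1 with an intensity trend in R 4.3.3 on log2(FPKM + 1), two-sided, with alternatives in scaling, filter, pseudocount, test and block. The authors' size factors were kept. Self-tests used simulated data.

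Members, gene lists (from words in the descriptions) and named genes were chosen with earlier results of these data known. Genes named were all asparagine synthetases, the 6 largest called non-overlapping changes each way, the 5 highest in each organ, per list the highest member and the largest change each way, and 5 per interaction. Other named genes were chosen after their values were seen. Same-numbered libraries of one organ deviated together across genotypes (correlations from 0.43 to 0.84) and conditions (0.40 to 0.74), so that a block within each organ was added for the interactions after the data were seen. The labels name no shared batch.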

Additional observations from a re-analysis of the deposited data

Results flagged for a closer look

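The organ difference of 52 genes differed between genotypes and that of 3469 genes between growth conditions, by the test of the interaction of limma. The 5 genes with the smallest adjusted p for the genotype interaction included a pair of alternative NAD(P)H dehydrogenases of mitochondria. The external enzyme B2 (LotjaGi6g1v0339200), which feeds electrons into respiration, was at 1.25 ± 0.244 FPKM in shoots and 4.49 ± 0.331 in roots of WT NS and at 8.95 ± 0.930 and 0.548 ± 0.152 in *Ljasn1‐2* NS (interaction 3.98 ± 0.18, adjusted p = 7.8e-07). All libraries of WT were higher in roots and all of *Ljasn1‐2* higher in shoots. The internal enzyme A1 (LotjaGi4g1v0050800) changed in the same way (interaction 2.55 ± 0.21), and so did NFXL1 (LotjaGi4g1v0465300), a zinc finger regulator of stress responses, at 7.93 ± 1.73 and 21.2 ± 1.88 FPKM in WT and 59.8 ± 10.2 and 4.40 ± 1.83 in *Ljasn1‐2* (interaction 4.85 ± 0.31). Cytochrome P450 82A1 (LotjaGi2g1v0251800) had an interaction of 3.57 ± 0.28 and ABC transporter C3 (LotjaGi1g1v0018700) of 2.47 ± 0.20. Both dehydrogenases also differed between conditions (interactions 0.72 ± 0.18 and 0.74 ± 0.21), the second with a call lost in 6 of 12 fits that left out 1 library.

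Between conditions, the 5 genes with the smallest adjusted p were all near 0 FPKM in every WT NS library and in WT shoots S, and high in nodulated roots S. An aspartic protease gene (LotjaGi3g1v0134800_LC) was at 1627, 1849 and 1450.1 FPKM in roots S (interaction -10.50 ± 0.17). The others were RING-H2 protein ATL11 (LotjaGi1g1v0141200, -7.12 ± 0.16), metal transporter Nramp5 (LotjaGi4g1v0234500, -6.49 ± 0.12), cytokinin dehydrogenase 4 (LotjaGi6g1v0231300, -5.58 ± 0.14) and a CCCH zinc finger protein (LotjaGi3g1v0060700, -5.52 ± 0.13). Among genes of the main comparison, asparagine synthetase 2 (LotjaGi6g1v0130800) was at 1.08, 0.959 and 1.31 FPKM in shoots S and 2775, 2955 and 1134 in roots S, with a wider organ difference (interaction -2.57 ± 0.43, adjusted p = 0.0011). That of *NRT2.4* (LotjaGi3g1v0487600) was narrower under S, with 29.1, 47.9 and 20.1 FPKM in roots (interaction 4.23 ± 0.33). The organ differences of BURP domain protein 17 (LotjaGi3g1v0506700, 1.80 ± 0.15) and peroxidase 4 (LotjaGi1g1v0109000, 1.56 ± 0.25) were narrower as well, and that of the gene without description LotjaGi3g1v0062400 was wider (1.15 ± 0.37, adjusted p = 0.046), with the call lost in 10 of 12 fits that left out 1 library. With limma voom on recovered reads, where levels near 0 are not damped, the interaction with condition was not called for *NRT2.4* (2.41, adjusted p = 0.36), peroxidase 4 (0.97, adjusted p = 0.70), this gene (2.47, adjusted p = 0.11) and both dehydrogenases (0.78 and 1.12, adjusted p = 0.15 and 0.27).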

How the results depend on the processing

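In WT NS the count of genes higher in roots moved from 4529 to 7739 with scaling to total reads and to 2973 with a filter of 5 FPKM, which tests fewer genes. Alternatives were compared for 174 named genes that were tested, and 152 of these kept their call under every alternative run on them. The 1 called gene whose sign changed was metallothionein-like protein 2 (LotjaGi3g1v0224500), from 2.43 to -0.0096 under quantile normalization. Its call was lost there (adjusted p = 0.97) and did not turn to roots. The size of a change moved with the scale for genes near 0 in an organ, as with ABP19a (LotjaGi3g1v0415000), from 10.30 to 17.12 with limma voom on recovered reads, which called 4510 genes higher in shoots and 4480 higher in roots. Leaving out 1 library at a time gave between 4068 and 4533 genes higher in shoots and between 3781 and 4662 higher in roots in WT NS, between 3899 and 4621 and between 3690 and 4965 in *Ljasn1‐2* NS, and between 4212 and 5251 and between 3988 and 5699 in WT S. For the interaction with genotype it gave between 35 and 51 positive and between 4 and 10 negative genes, with 4 without replicate 2 of *Ljasn1‐2* roots or shoots or of WT roots or replicate 3 of WT shoots and 5 without replicate 3 of *Ljasn1‐2* shoots or replicate 1 of WT roots, and for that with condition between 1448 and 2156 and between 1289 and 2065.

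The interaction with genotype, 43 positive and 9 negative genes, moved to 24 and 4 with the filter of 5 FPKM and to 24 and 1 with limma voom on recovered reads. A replicate block over all libraries moved it to 65 and 16, and a replicate block within each organ, chosen after seeing the data, to 250 and 204. The latter moved the interaction with condition from 1904 and 1565 to 3699 and 3241. Between the organs, the deviations of same-numbered libraries of WT NS correlated at 0.23, -0.46 and 0.38. Of 3 shoot libraries, 1 correlated best with its own number. The labels do not say whether same-numbered shoots and roots came from the same plants. These correlations cannot decide it, since the deviations also went with gene length (correlations with log2 length from -0.45 to 0.47). The replicate block in the comparison of the organs gave 4655 genes higher in shoots and 4707 higher in roots. Of the 174 named genes compared under it, only the call of nitrate reductase changed. Genes removed by the filter on low values were not tested, and without that filter 5377 of 26000 genes were called higher in shoots and 5414 higher in roots.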

Other observations

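Protein families named by the domain column of the deposited table were counted for the 23 domains with at least 40 tested genes, a choice made after the data were seen. Genes with a TIR domain, found in immune receptors, were higher in roots for 30 and in shoots for 8 of 49 members (median log2 change -0.96). WRKY transcription factors, which regulate defence, were higher in roots for 28 and in shoots for 13 of 51 (median -0.71), and AP2 factors, among them the ethylene response factors, for 42 and 15 of 87 (median -0.48). Of 181 genes with a Pkinase_Tyr domain, 89 (49.2%) were higher in roots and 38 (21.0%) in shoots. For TIR, WRKY and AP2 genes the shares higher in roots were 61.2, 54.9 and 48.3%, against 26.2% over all genes. Their shares higher in shoots were 16.3, 25.5 and 17.2%, against 26.3%. Under total scaling the counts in roots and shoots were 109 and 29 for Pkinase_Tyr, 32 and 6 for TIR, 34 and 10 for WRKY and 54 and 13 for AP2. RNA-binding proteins with an RRM domain were higher in shoots for 30 and in roots for 12 of 145, and DEAD-box RNA helicases for 13 and 0 of 49 by limma (0 higher in roots by voom also, and 1 at an unadjusted p under 0.05). Their shares higher in shoots, 20.7 and 26.5%, were below and close to the 26.3% over all genes. Both families had more members higher in roots under total scaling (18 against 49, and 7 against 12). Of 129 genes with a cytochrome P450 domain, 53 (41.1%) were higher in shoots and 64 (49.6%) in roots, both above the shares over all genes. No test was made over these families.

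The 9 genes called in opposite directions in WT NS and *Ljasn1‐2* NS were all higher in roots of WT. Beside the NAD(P)H dehydrogenases and NFXL1, they included alternative oxidase (described as ubiquinol oxidase 1, LotjaGi2g1v0344500), at 0.150 ± 0.0328 FPKM in shoots and 1.32 ± 0.0543 in roots of WT and at 1.83 ± 0.510 and 0.595 ± 0.127 in *Ljasn1‐2*. Cytosolic glyceraldehyde-3-phosphate dehydrogenase 2 (LotjaGi6g1v0100900) was at 12.8 ± 2.64 and 23.4 ± 4.8 FPKM in WT and at 41.1 ± 6.38 and 13.1 ± 2.37 in *Ljasn1‐2*. Of the 206 genes in opposite directions between NS and S, 114 were higher in shoots under NS and higher in nodulated roots under S. Coproporphyrinogen-III oxidase (LotjaGi1g1v0003900), an enzyme of heme and chlorophyll synthesis, was at 22.2 ± 2.07 FPKM in shoots and 2.54 ± 0.458 in roots NS and at 23.1 ± 2.19 and 188 ± 50.7 under S.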
